A study of Mus musculus with 4 samples.

Results

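The clustered protocadherin genes of the mouse were examined for RAD21, a core subunit of the cohesin complex. Members were the protein-coding genes of chromosome 18 whose symbols start with Pcdha, Pcdhb or Pcdhg in the mm9 annotation of GENCODE vM1, and the region ran from 100 kb before the first to 100 kb after the last of them (chr18:36989939-38101527). The annotation held 24 such genes among 21418 protein-coding genes of the autosomes. Pcdha11 (ENSMUSG00000007440.7) and Pcdha3 (ENSMUSG00000091969.1) made up the alpha cluster, 21 genes from Pcdhb1 to Pcdhb22 the beta cluster, and Pcdhgc5 (ENSMUSG00000023036.7) the gamma cluster. Because the annotation places nearly all alpha variable exons under Pcdha11 and all of gamma under Pcdhgc5, the variable exon was used as the unit, and exons are numbered here from the 5′ end of each cluster, which need not match the usual isoform numbers. Annotated transcripts started at 40 variable exons, 10 in alpha, 21 in beta and 9 in gamma. A search of the genome for long open reading frames related to them gave 58 variable exons, 14 in alpha, 22 in beta and 22 in gamma. Symbols and positions, not any read count, chose the members, whereas the sites are those of the deposited lists. For the alpha exons, Pcdhb1, Pcdhb6, Pcdhb13 and exons without an annotated transcript, the start is at or near the open frame's first codon. It is not a mapped transcription start there. At the other exons the start lies before the first codon by differing distances, so offsets from starts are not fully comparable between exons.

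Clustered protocadherins are cell-surface adhesion proteins of the cadherin superfamily, and single neurons express different combinations of them. Each variable exon carries its own promoter and encodes the extracellular, transmembrane and proximal intracellular parts of one isoform. In the alpha and gamma clusters the chosen variable exon is spliced to constant exons shared by the whole cluster, whereas beta genes consist of the variable exon alone. The last exons of alpha and gamma, which lie nearest the constant exons, are known as C-type. Promoters of the clusters are known to contact enhancers that lie downstream of the alpha and of the gamma constant exons, and CTCF, a zinc finger protein that binds DNA in a directional motif, and cohesin occupy both kinds of element in neural cells.

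Chromatin immunoprecipitation with sequencing had been carried out on R1/E mouse embryonic stem cells (ESCs, differentiation day 0, grown with LIF) and on embryoid bodies (EBs, day 12, hanging drops), which are aggregates of differentiating cells of several lineages. All cells carried Rad21 with a GFP-containing LAP tag on a bacterial artificial chromosome, in drug-resistant cells sorted for GFP, so that the tagged protein was present beside the endogenous one. Antibody against GFP was compared with control goat IgG in each cell type, which gave 4 libraries and 1 library per group. The libraries of RAD21 held 14133430 reads in ESCs and 8006161 in EBs, and those of IgG held 13002597 and 7067703. One read was therefore worth 0.0729 reads per 1000000 autosomal reads (RPM) in ESC RAD21 and 0.129 RPM in EB RAD21. With no replicates, no test of ESCs against EBs was possible, and intervals below are exact 95% intervals that cover counting error only and compare libraries. Expression was not measured in these libraries.

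RAD21 sites were dense across the clusters in ESCs and were found mainly at the starts of variable exons and downstream of the gamma cluster. The ESC list held 26 sites in the 1.11 Mb region, 23.4 per Mb, against 6.10 per Mb over the autosomes. The EB list held 12 sites, 10.8 per Mb against 4.36. Of 2216 autosomal windows of the same length, 11 held at least as many ESC sites as the region and 87 at least as many EB sites. Overlapping entries of both lists merged into 28 sites, numbered here along the chromosome, of which 20 had a summit within 1 kb of a variable exon start, 1 lay further inside a beta exon, 1 lay downstream of alpha and 6 lay downstream of gamma. The scores of the ESC sites (-10 times log10 of the p-value of the peak caller) had a median of 78.1, lower than the 94.5 of all autosomal ESC sites, and 8 of the 26 reached 100. The EB sites had a median score of 100.2 against 97.7.

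**Figure D1:**
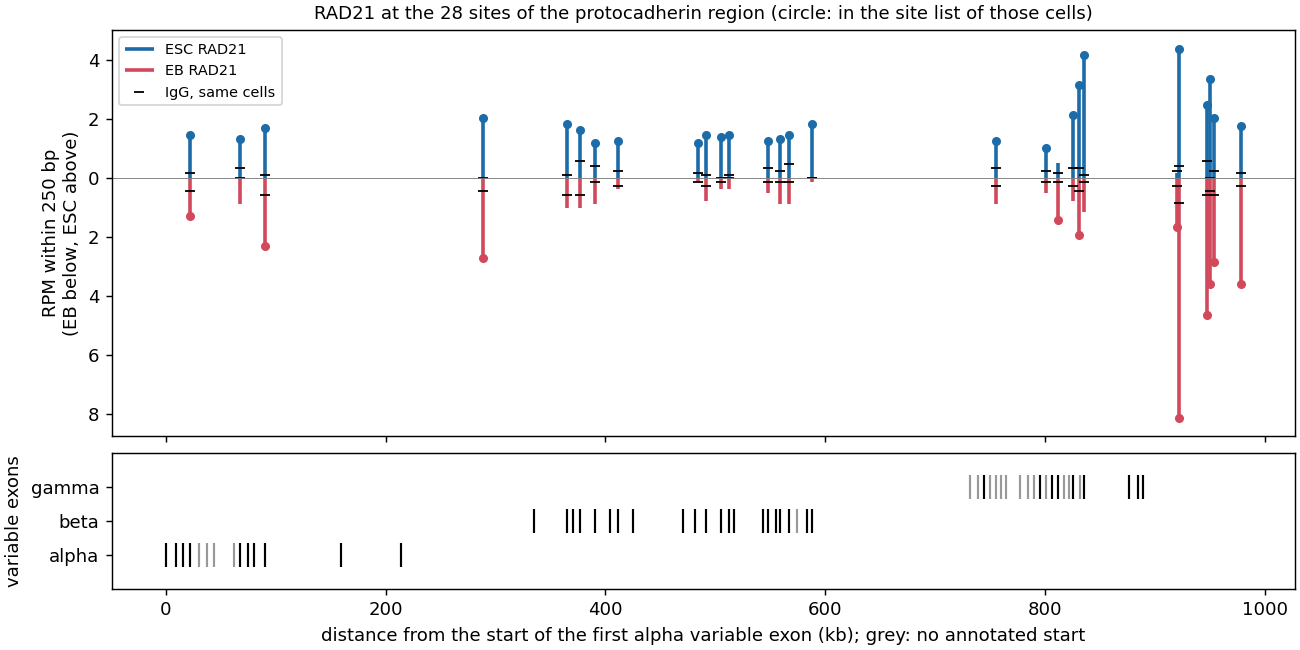
RPM within 250 bp of the summit at each of the 28 merged sites against distance from the first alpha variable exon (kb), ESC RAD21 upward and EB RAD21 downward, with dashes for IgG of the same cells and circles where the site is in that cell type's list. The lower rows mark the 58 variable exons, grey where no transcript start is annotated. Circles for ESCs stand over all 3 clusters, whereas those for EBs are missing over beta and cluster at the right end, downstream of gamma, where the highest bar reaches 8.14 RPM.

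ESC sites lay at starts of genes in all 3 clusters, whereas EB sites lay at starts of alpha and gamma. Of the 24 genes, 13 had an ESC summit within 1 kb of an annotated start, compared with 2.93% of all autosomal genes. An EB summit was found at 2 of the 24, compared with 2.82%. With a score of at least 100 required of the sites, these counts fell to 1 and 0, and of the ESC sites at starts only those of gamma exons 17, 18 and 19 remained. The shares of 2.93% and 2.82% are for sites of any score, and those of all genes at that score are not given here. Counts of genes weigh clusters unequally, since Pcdha11 and Pcdhgc5 have 9 annotated starts each and every beta gene has 1. Counted by start, 16 of the 40 annotated starts had an ESC site (all autosomal starts, 2.18%) and 3 had an EB site (2.01%). With the open-frame exons included, 19 of 58 had an ESC site and 4 had an EB site.

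In the alpha cluster the 3 sites were those of exon 4, exon 9 and exon 12, and both outer ones were in both lists. Site 1, 154 bp before alpha exon 4 (summit 37112266), had 20 reads in ESC RAD21, 10 in EB RAD21, 2 in ESC IgG and 3 in EB IgG. Site 2, 114 bp before alpha exon 9 (summit 37157420) and listed in ESCs alone, had 18, 7, 4 and 0 reads in the same order. Site 3, 112 bp before alpha exon 12 (summit 37179772), had 23, 18, 1 and 4 reads. All 3 summits lay just upstream of the start, in an intron of Pcdha11 by the annotation. Listed sites had been called against IgG of the same cells, so their excess over IgG is a description and not a finding. In EBs, RAD21 over IgG at site 1 was 2.98 (0.77 to 16.9), an interval that contained 1. The other intervals of RAD21 over IgG at these sites lay above 1 in both cell types. EB over ESC ratios, in RPM, were 0.89 (0.37 to 1.98), 0.69 (0.24 to 1.73) and 1.39 (0.71 to 2.69), and each interval contained 1.

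Among all alpha starts, exon 12 had the most RAD21 reads within 1 kb in both cell types, with 49 in ESCs and 27 in EBs, beside 11 and 8 in IgG. The fewest ESC reads were at alpha exon 8, with 7 in RAD21 and 14 in IgG, and the fewest EB reads at alpha exon 7, with 3 in RAD21 and 4 in IgG. Both exons share 35-base stretches with other places in the genome. Of the 35-base windows around exon 7, 71.6% occurred once in the genome, and of those around exon 8, 77.8%, so that low values there go with low mappability, whose part in them was not tested. The last 2 alpha exons, which occupy the C-type position, had no site in either list and had 25 and 11 ESC RAD21 reads, with 12 and 10 in ESC IgG.

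All 12 sites of the beta cluster were in the ESC list and none was in the EB list. They marked the starts of 11 genes: Pcdhb2, Pcdhb4, Pcdhb5, Pcdhb7, Pcdhb11, Pcdhb12, Pcdhb13, Pcdhb16, Pcdhb18, Pcdhb19 and Pcdhb22. Their summits (37454529, 37467091, 37480056, 37501263, 37581088, 37595230, 37602100, 37637501, 37649132, 37656717 and 37677992) lay between 93 bp before and 79 bp after the start. The twelfth site, site 9 (chr18:37573429-37574144), lay 2344 bp into Pcdhb10, towards the end of its exon. Summed over the 12 sites, RAD21 reads numbered 235 in ESCs and 58 in EBs, and IgG reads 33 and 18. The EB over ESC ratio of RAD21 was 0.44 (0.32 to 0.59) and that of IgG 0.99 (0.53 to 1.81). All 12 had a ratio under 1, but they had been chosen by their presence in the ESC list, so that this direction is a description and not a finding.

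Of the 12 beta sites, all taken from the ESC list, which favours low EB over ESC ratios, 4 had a ratio whose interval lay below 1, compared with 18.4% of all merged autosomal sites. At Pcdhb22, the last gene of the cluster, site 16 (chr18:37677481-37678442) had 25 ESC RAD21 reads and 1 EB RAD21 read, with 0 reads in both IgG libraries, a ratio of 0.07 (0.00 to 0.43). At site 9 within Pcdhb10 there were 16 and 1 RAD21 reads with 2 and 1 in IgG, a ratio of 0.11 (0.00 to 0.71). Pcdhb12 (chr18:37594824-37595666) had 19 and 3 RAD21 reads with 0 and 1 in IgG, and Pcdhb13 (chr18:37601683-37602434) had 20 and 3 with 1 and 0. Their ratios were 0.28 (0.05 to 0.95) and 0.27 (0.05 to 0.90). At the other 8 the EB reads ranged from 3 at Pcdhb7 to 8 at Pcdhb2 and Pcdhb4, and the intervals contained 1.

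Beta starts without a site in the ESC list were not free of reads. The 11 beta starts without one had 16 to 34 ESC RAD21 reads within 1 kb, overlapping the 22 to 48 reads of the 11 starts with one. In ESC IgG the same windows had 4 to 16 reads without a site and 3 to 14 with one, so part of these counts is background. Pcdhb22 had the most ESC reads in the cluster (48, with 3 in IgG) and 8 EB reads with 10 in EB IgG. Pcdhb2 had the most EB reads (21, with 8 in IgG) and 38 ESC reads with 9 in IgG. Pcdhb1, which stands apart from the others at the 5′ end, had the fewest in both, with 16 in ESCs and 3 in EBs and with 13 and 2 in IgG.

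In the gamma cluster the ESC sites rose in height towards the 3′ end of the tandem exons and stopped before the C-type position. Sites 17 and 18, before gamma exon 5 (summit 37844932) and exon 12 (summit 37890552), were of low height with 17 and 14 ESC RAD21 reads and 7 and 4 EB RAD21 reads. IgG had 4 and 3 reads there in ESCs and 2 and 1 in EBs. Site 20 (chr18:37914999-37915882), 84 bp before gamma exon 17, had 29 and 6 RAD21 reads with 4 and 2 in IgG, and a ratio of 0.37 (0.12 to 0.90). Site 21 (chr18:37920780-37921969), 352 bp before exon 18 and in both lists, had 43 and 15 with 4 and 3 in IgG, and a ratio of 0.62 (0.32 to 1.13). Site 22 (chr18:37925089-37926109), 356 bp inside exon 19, had 57 and 9 with 1 and 1 in IgG, and a ratio of 0.28 (0.12 to 0.57). Sites 20 and 22 thus had intervals below 1, and site 22 carried the second highest ESC read count of the region without an entry in the EB list.

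One gamma site was listed in EBs alone. Site 19, 282 bp before gamma exon 14 (summit 37901466), had 7 ESC and 11 EB RAD21 reads and 2 and 1 IgG reads, a ratio of 2.78 whose interval, 0.99 to 8.47, contained 1. Within 1 kb of the start, gamma exon 19 had the most ESC reads (72, with 5 in IgG) and exon 6 the fewest (13, with 10 in IgG). Exon 18 had the most EB reads (24, with 4 in IgG) and exon 3 the fewest (3, with 3 in IgG). Over gamma exons 17 to 19, singled out after their values were seen, RAD21 numbered 189 reads in ESCs and 50 in EBs, a ratio of 0.47 (0.34 to 0.64), and IgG 31 and 16, a ratio of 0.94 (0.48 to 1.77). Gamma exons 1 to 16 had 338 and 161 RAD21 reads, a ratio of 0.84 (0.70 to 1.02).

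The 5 exons in the C-type position, the last 2 of alpha and the last 3 of gamma, had no site in either list. Their RAD21 reads within 1 kb summed to 87 in ESCs and 53 in EBs, and those of IgG to 41 and 13. RAD21 over IgG was 1.95 (1.33 to 2.90) in ESCs and 3.65 (1.96 to 7.30) in EBs. Within 250 bp of these starts ESC RAD21 had 15 reads and ESC IgG 10, a ratio of 1.38 (0.58 to 3.43) whose interval contained 1. EB RAD21 had 16 reads there and EB IgG 2, a ratio of 7.16 (1.68 to 64.2). The EB over ESC ratio of RAD21 was 1.08 (0.75 to 1.54), and that over the other 53 variable exons was 0.75 (0.68 to 0.82), with overlapping intervals. The EB over ESC ratio of IgG at the 5 was 0.58 (0.28 to 1.10). The GC content of these 5 windows was 50.2% to 58.4%, above the 39.2% to 47.4% of the other 53. Away from sites the EB over ESC ratio of RAD21 moved with GC content, as described below. The part of GC content in the ratio of these 5 exons was not tested.

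**Figure D2:**
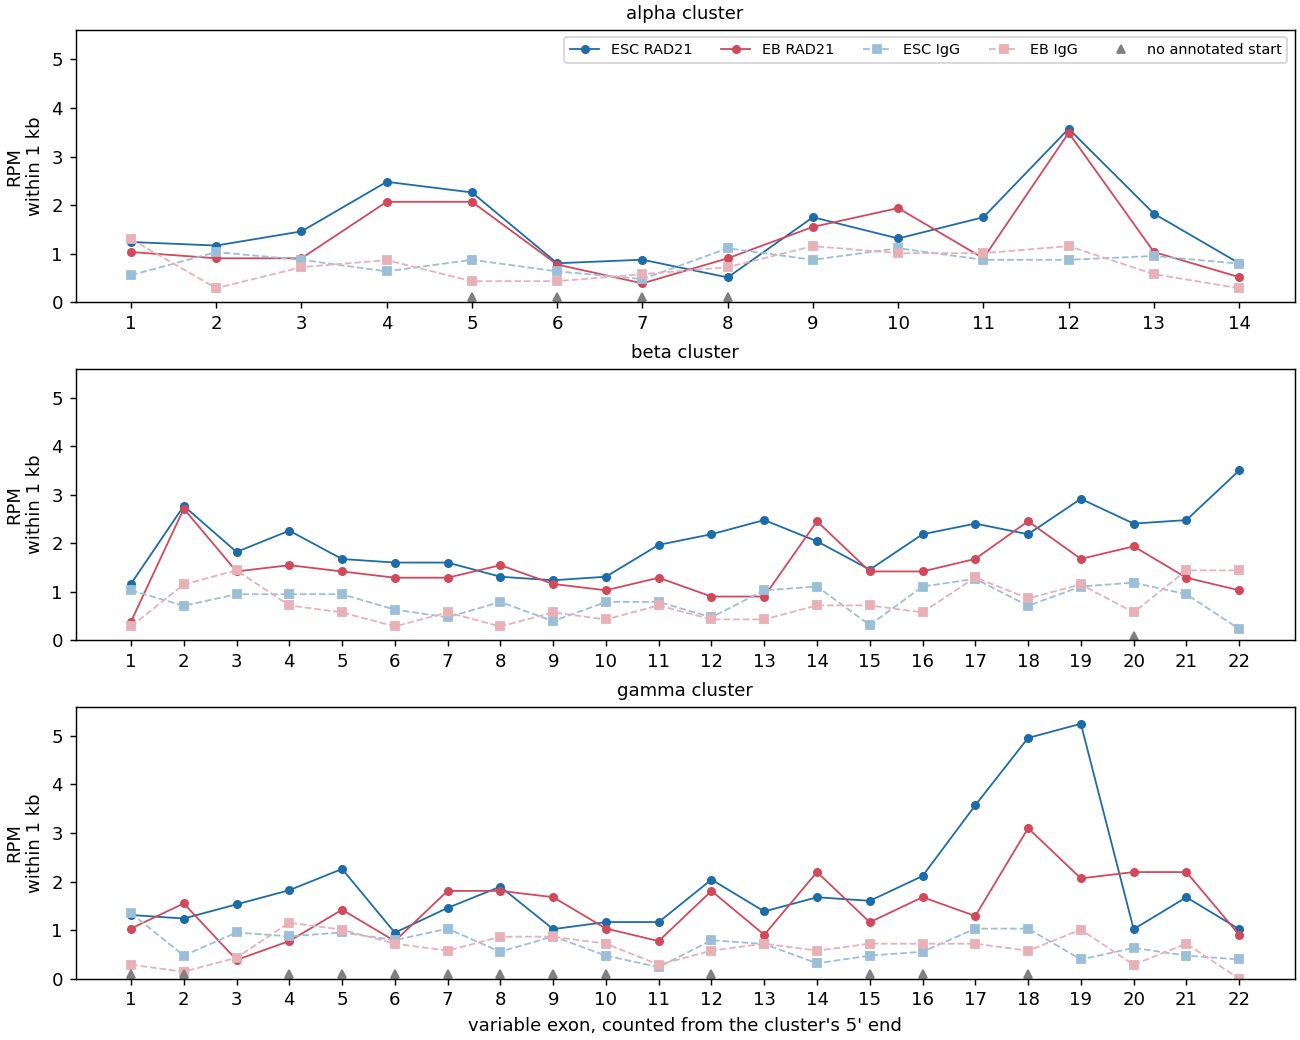
RPM within 1 kb of each variable exon start (vertical axis), by exon from the 5′ end of the alpha, beta and gamma clusters, for the 4 libraries, with grey triangles at exons that have no annotated start. RAD21 in ESCs reaches 5.25 at gamma exon 19, whereas both IgG lines stay below 1.5 at all exons.

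Summed over the annotated member starts, RAD21 stood above IgG in both cell types. At the 40 annotated starts RAD21 reads within 1 kb summed to 1073 in ESCs and 446 in EBs, and IgG reads to 385 and 203. RAD21 over IgG was 2.56 (2.28 to 2.88) in ESCs and 1.97 (1.66 to 2.33) in EBs. The median over the starts, with 1 read added to each count, was 2.28 in ESCs and 1.79 in EBs, compared with medians of 1.15 and 1.19 over all 28908 autosomal starts. None of the 40 starts had a ratio under 1 in ESCs and 6 did in EBs, whereas 39.4% and 38.7% of all starts did. Within 250 bp of the 54 variable exon starts without an EB site, EB RAD21 had 226 reads and EB IgG 58, a ratio of 3.49 (2.60 to 4.74). Starts without an ESC site are not summed apart here. At some of them RAD21 was near IgG in ESCs, as at alpha exon 14 with 11 and 10 reads within 1 kb.

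RAD21 was concentrated close to the start. In bins of 100 bp the alpha profile peaked 150 bp before the start in both libraries, at 0.302 RPM per exon in ESCs and 0.305 in EBs, with 0.0340 and 0.0618 in IgG of the same bin. The beta profile peaked within 50 bp of the start on either side, at 0.348 in ESCs and 0.264 in EBs, with 0.0721 and 0.0525 in IgG. The gamma profile peaked 150 bp before the start in ESCs, at 0.265, and 250 bp before it in EBs, at 0.282, with 0.0469 and 0.0328 in IgG. In ESCs it had a second maximum of 0.199 in the bin centred 350 bp after the start, where the summit of site 22 lay. Gamma exons 17 to 19 held 189 of the 578 ESC RAD21 reads within 1 kb of the 22 gamma starts, so the summed profile weighs them heavily. The beta cluster, without a site in the EB list, therefore had a maximum at its starts in the EB library too. Within 250 bp of the 22 beta starts, EB RAD21 had 122 reads and EB IgG 31, a ratio of 3.52 (2.36 to 5.41), and the ESC libraries had 340 and 62, a ratio of 5.04 (3.83 to 6.72). Just inside the alpha exons all libraries dipped. In the bin centred 250 bp after the start, 35.4% of the 35-base windows of the alpha exons were unique in the genome, and coverage there was 0.0260, 0.0185, 0.0227 and 0 RPM per exon in ESC RAD21, EB RAD21, ESC IgG and EB IgG.

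**Figure D3:**
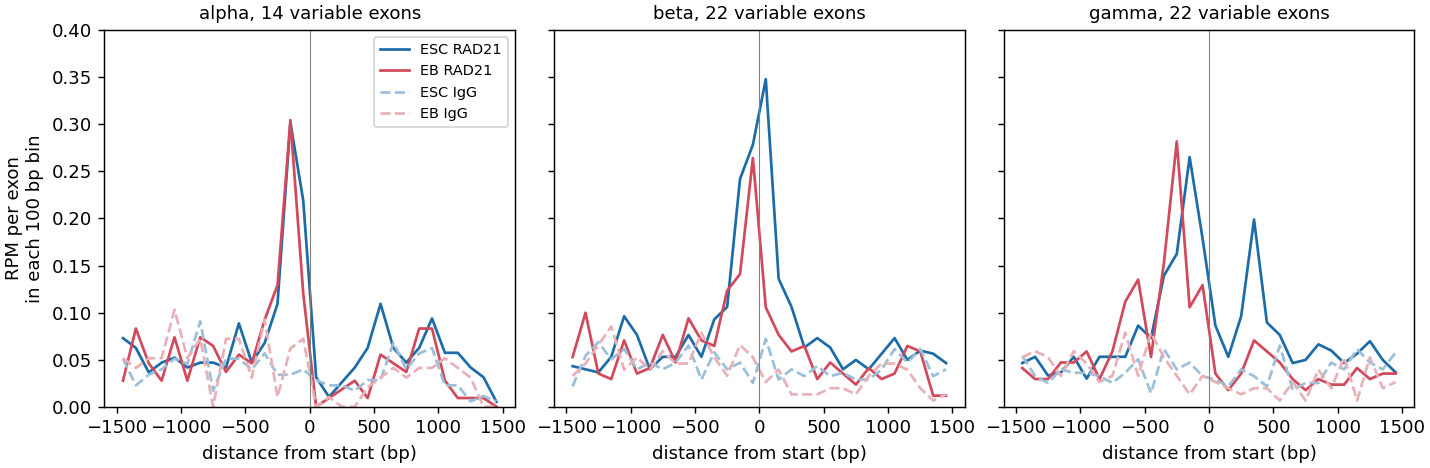
RPM per variable exon in 100 bp bins (vertical axis) against distance from the start (bp), summed over the 14 alpha, 22 beta and 22 gamma exons, for RAD21 (solid) and IgG (dashed) of ESCs and EBs. In each cluster both RAD21 lines rise to a maximum within 250 bp of the start, while the IgG lines stay at or below 0.103. In beta the ESC IgG line also has its highest bin, 0.0721, centred 50 bp after the start.

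Compared between the libraries, RAD21 at the starts was lower in EBs. The EB over ESC ratio of the summed reads, in RPM, at the 40 annotated starts was 0.74 (0.66 to 0.82), and that of IgG at the same positions 0.96 (0.80 to 1.14). By cluster the ratio was 0.83 (0.65 to 1.04) in alpha, 0.71 (0.61 to 0.83) in beta and 0.71 (0.55 to 0.89) in gamma. The alpha interval contained 1 and overlapped both others. The ratio was under 1 at 32 of the 40 starts, compared with 46.6% of all autosomal starts. The interval of a single start lay below 1 at 6 of the 40 (Pcdhb12, Pcdhb13, Pcdhb22 and gamma exons 3, 17 and 19) against 3.85% of all starts, and above 1 at 0 against 5.26%. The EB over ESC ratio of all autosomal starts together was 1.03, and the ratio at member starts remained below 1 under every scaling tried, with values from 0.56 to 0.82.

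GC content moved with this comparison. In bins of the genome away from sites, the EB over ESC ratio of RAD21 reads fell from 0.99 at 40% to 42% GC to 0.67 at 50% to 52% GC, and that of IgG from 1.00 to 0.69. The 40 member windows had a median GC content of 42.7%, and all autosomal windows 50.4%. Scaled by bins of the same GC content, the ratio at the member starts was 0.82, still below 1, with 0.92 in alpha, 0.76 in beta and 0.87 in gamma. These scaled values have no intervals. Whether 1 lies within their counting error, in particular for alpha and gamma, is therefore not given here.

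Downstream of the alpha constant exons a single site was found, in both lists and of similar height in both. Site 4 (chr18:37377398-37378492) lay between genes, 30.8 kb past the end of alpha and before Pcdhb1. It had 28 reads in ESC RAD21 and 21 in EB RAD21, with 0 in ESC IgG and 3 in EB IgG. Its EB over ESC ratio was 1.33 (0.72 to 2.43), and its scores were 134.2 in ESCs and 138.2 in EBs, the highest before the gamma cluster in both lists.

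Downstream of gamma, 6 sites lay 8.25 kb to 66.4 kb past the end of the cluster, all in introns of the neighbouring gene Diap1, named as in the annotation. The strongest, site 24 at 10.4 kb (chr18:38011585-38012574), had 60 ESC and 63 EB RAD21 reads with 5 and 6 IgG reads. It had the highest counts and scores of the region in both cell types, with scores of 428.6 and 362.6, and an EB over ESC ratio of 1.86 (1.29 to 2.70). Site 23 (chr18:38009310-38010026), the nearest to gamma and listed in EBs alone, had 2 and 13 RAD21 reads with 3 and 2 in IgG, and a ratio of 11.5 (2.61 to 105.1). In ESCs it did not exceed its IgG control.

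Further on, site 25 (chr18:38036693-38038650) had 34 and 36 RAD21 reads with 7 and 4 in IgG, and a ratio of 1.88 (1.14 to 3.09). It merged 1 ESC entry with 2 EB entries. Site 26 (chr18:38039495-38040505) had 46 and 28 with 0 and 3 in IgG, and a ratio of 1.08 (0.65 to 1.76). Site 27 (chr18:38042899-38044495) had 28 and 22 with 3 and 4 in IgG, and a ratio of 1.39 (0.76 to 2.52). Site 28 (chr18:38067441-38068303) had 24 and 28 with 2 and 2 in IgG, and a ratio of 2.07 (1.16 to 3.73). All 6 ratios were above 1, and those of sites 23, 24, 25 and 28 had intervals above 1, compared with 20.2% of all merged autosomal sites. That share includes sites listed in ESCs alone, and its value for sites in both lists is not given here. Site 23 was listed in EBs alone, which favours a high EB over ESC ratio. Of the 6 sites 5 were in both lists, and among all autosomal sites in both lists 25.3% had a ratio below 1, so that ratios above 1 were usual for such sites. No site downstream of gamma had an interval below 1.

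The site lists differed between starts and downstream elements. Of the 26 ESC sites of the region 9 overlapped an EB site, 34.6% (exact Clopper-Pearson interval 17.2% to 55.7%), compared with 48.6% of all autosomal ESC sites. Of the 12 EB sites 10 overlapped an ESC site, 83.3% (51.6% to 97.9%), compared with 68.3%. Both intervals include the value of all sites. Near variable exon starts 3 of 19 ESC sites overlapped an EB site, 15.8% (3.38% to 39.6%), and downstream of gamma 5 of 5 did, 100% (47.8% to 100%). Over the 28 sites an interval below 1 was found at 6, compared with 18.4% of all merged autosomal sites, and an interval above 1 at 4, compared with 20.2%. Peak score moved with these shares. Apart from sites 20, 21 and 22, the ESC sites near starts scored 53.4 to 96.2, whereas those downstream of gamma scored 85.2 to 428.6. With a score of at least 100 required, 8 ESC sites of the region remained and their overlapping share was 75.0%. The 48.6% of all sites has no such limit, and the share of all sites at that score is not given here. The part of peak score in the difference between starts and downstream sites was not tested.

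**Figure D4:**
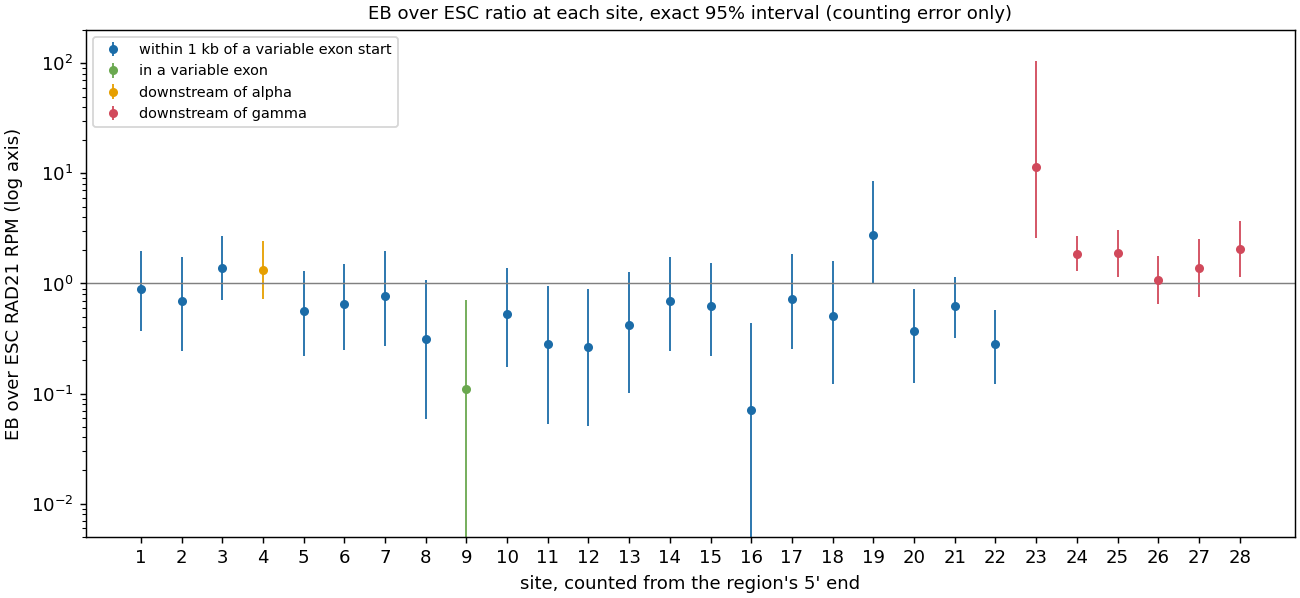
EB over ESC ratio of RAD21, in RPM, within 250 bp of the summit (log axis) at each of the 28 sites in order along the chromosome, with exact 95% intervals for counting error, coloured by the place of the site. The intervals of sites 9 and 16 run past the lower edge. Sites 23 to 28, downstream of gamma, lie above 1, and the 11 sites at beta starts lie below 1.

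Relative to the starts, RAD21 downstream of gamma was higher in EBs than in ESCs. Summed over the 6 sites, RAD21 had 194 reads in ESCs and 190 in EBs, a ratio of 1.74 (1.41 to 2.13), compared with 0.74 at the annotated starts. The first ratio was 2.36 times the second (1.86 to 2.98, exact conditional interval). The sites were counted within 250 bp of the summit and the starts within 1 kb. With 250 bp at the starts too, the downstream ratio was 2.54 times that of the starts. The downstream sites had been chosen by the lists and the starts had not. Among sites in both lists, the ratio was 1.63 (1.32 to 2.01) at the 5 sites downstream of gamma, 0.89 (0.60 to 1.29) at the 3 near starts and 1.31 (1.30 to 1.32) over all 7312 autosomal sites of that kind.

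IgG moved with the downstream ratio. At the 6 sites IgG had 20 reads in ESCs and 21 in EBs, an EB over ESC ratio of 1.91 (0.99 to 3.71). Divided by this, the RAD21 ratio became 0.91, on the other side of 1, whereas after subtraction of IgG it was 1.71, and with scaling by GC content it was 2.04. Divided by the IgG ratios, the downstream value was 1.18 times that of the starts rather than 2.36 times. RAD21 over IgG at the 6 sites was 8.91 (5.61 to 14.9) in ESCs and 8.10 (5.15 to 13.4) in EBs. The part of IgG in the downstream ratio was not tested.

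CTCF motifs near the variable exons all lay on the strand of the genes. The motif was a weight matrix learned at ESC summits of the other autosomes and read on both strands. It was searched at 2 thresholds, passed by 1e-05 and by 1e-04 of positions of chromosome 19. At the stricter threshold 1 of the 40 annotated starts, alpha exon 1, had a match within 1 kb (all starts, 1.68%). At the looser threshold 18 did (all starts, 20.6%), as did 23 of the 58 exons, which were 11 of 14 in alpha, 10 of 22 in beta and 2 of 22 in gamma. The 58 windows held 25 looser matches, of which 25 were on the strand of the gene, while the best match was on the strand of the gene at 53.5% of all autosomal starts with one. The exons of a cluster are related in sequence, with a median identity to the closest annotated member of 78.1% in alpha, 73.0% in beta and 69.2% in gamma, so these matches are not independent of each other.

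Positions of the matches were shared within clusters. In alpha, 8 exons had a match 462 bp to 489 bp after the start, inside the coding sequence, and exon 9 had one at 552 bp. Alpha exons 2, 3 and 9 had a match 113 bp to 180 bp before the start, in the interval where the alpha profile peaked. Of these, only exon 9 had a site. Sites 1 and 3, at alpha exons 4 and 12, had no looser match within 150 bp of the summit. In beta, 9 genes had a match 35 bp to 93 bp before the annotated start (Pcdhb9, Pcdhb10, Pcdhb11, Pcdhb12, Pcdhb15, Pcdhb16, Pcdhb18, Pcdhb19 and Pcdhb21). Of these, Pcdhb11, Pcdhb12, Pcdhb16, Pcdhb18 and Pcdhb19 had an ESC site. So did 11 of all 22 beta exons, a similar share. Gamma exon 19, whose site 22 was the highest at any start, had a match 241 bp after its start. A match is a description of the sequence, and the other exons lack only these letters in this window.

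**Figure D5:**
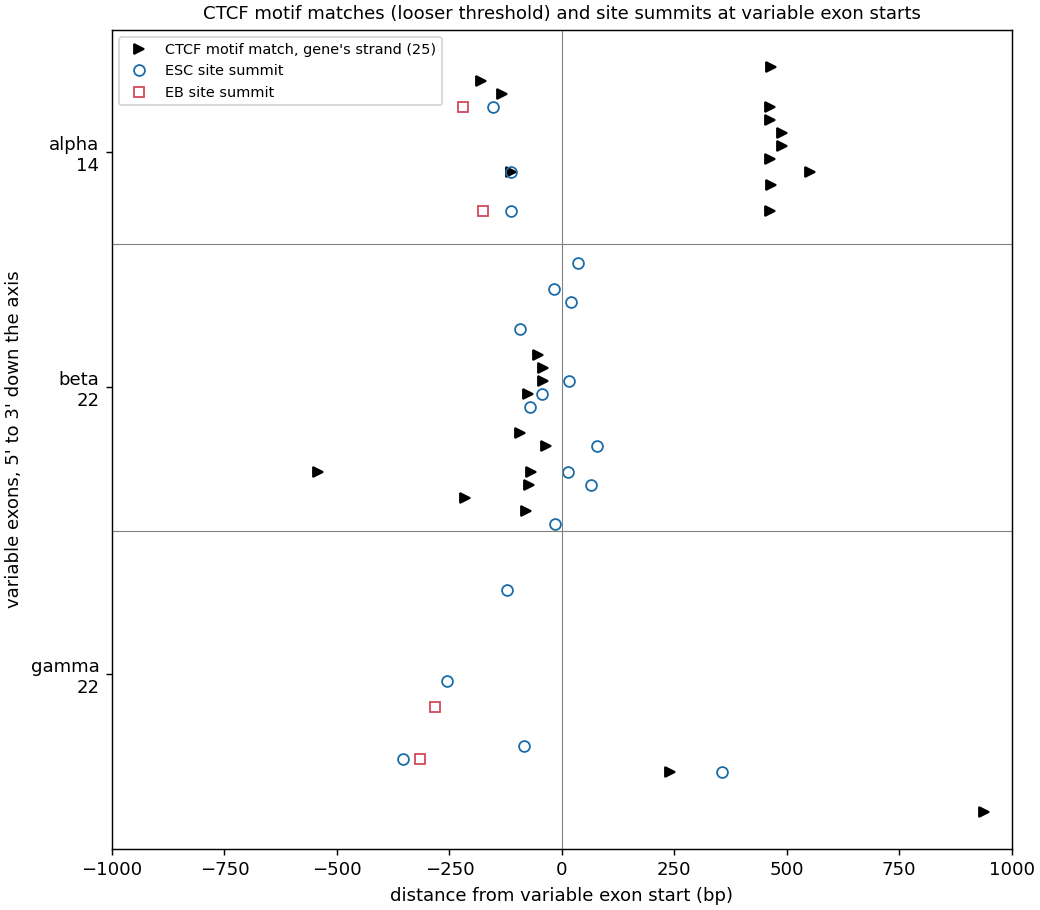
CTCF motif matches at the looser threshold (triangles) and summits of ESC (circles) and EB (squares) sites by distance from the variable exon start (bp, horizontal axis), with the 58 exons in chromosomal order down the vertical axis. All 25 triangles point along the genes, those of beta lie mostly within 93 bp before the start, and most of those of alpha lie 462 bp to 489 bp after it.

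Few of the sites themselves had a CTCF motif. None of the 28 sites had a match within 150 bp of the summit at the stricter threshold, compared with 24.7% of all merged sites, and 11 had one at the looser threshold, compared with 78.1%. The matrix was learned at ESC summits of the other autosomes, which are part of all merged sites, whereas the 28 sites were held out. These shares of all sites are therefore not like for like, and the effect of this was not tested. Of the 20 sites near starts 7 had a looser match, and these 7 matches were on the strand of the genes. The best match was on the other strand at site 4 downstream of alpha and at sites 24, 25 and 27 downstream of gamma, the 4 downstream sites that had one. Downstream of gamma 3 of the 6 sites had a match, and of their 5 matches 4 were on that strand and 1 on the strand of the genes. In the whole region the 97 looser matches divided into 58 on the strand of the genes and 39 on the other.

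Of 10 autosomal protocadherin genes outside the clusters, which encode related adhesion proteins, 1 (Pcdh1) had an ESC site within 1 kb of a start, compared with 2.93% of all autosomal genes. An EB site was found at 2 (Pcdh1 and Pcdh18), compared with 2.82%. With 10 genes these counts are too small to set against the clustered members.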

How the data were processed

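The authors sequenced 35-base reads on an Illumina Genome Analyzer II, aligned them to mm9 (the aligner is not given in the sources used here) and deposited 1 line per read, used as read counts, and called sites with MACS for each RAD21 library with the IgG library of the same cells as control. Each deposited site has a score, -10 times log10 of its p-value, and each summit a pileup signal that is not scaled between libraries. The labels describe the control libraries as IgG and also as input DNA. No read position was repeated on a strand. The depth was 14133430, 8006161, 13002597 and 7067703 reads in ESC RAD21, EB RAD21, ESC IgG and EB IgG, and 7 broken lines of ESC IgG and 1 of EB IgG were left out.

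Reads were moved to the centre of the fragment (length 205 bp in ESCs, 196 bp in EBs) and counted within 1 kb of starts and 250 bp of summits, scaled by autosomal reads. Ratios have exact conditional binomial 95% intervals and shares have Clopper-Pearson intervals. A count of 0 allows up to 3 reads. Medians use 1 read added to each count. Open frames of at least 2 kb related to annotated members (blastp 2.17.0, e-value at most 1e-50) gave further exons. The intended split of gamma and C-type genes by symbol could not be made with this annotation, and clusters were used in its place. Mappability is the share of 35-base windows that occur once in the genome. Counting and motif steps were tested on simulated data. Python 3.11.15, numpy 2.4.6, scipy 1.17.1 and pandas 2.3.3 were used.

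The members and lists were chosen with earlier results of these data known. Named were all members with a site, those with the most and the fewest RAD21 reads per cluster, and all sites by position. Of the sites, the 5 with the most reads in each cell type, those downstream and those whose interval excludes 1 were given in full. Alternatives were other windows, scalings, pseudocounts, score limits, overlap rules and motif thresholds. No sequence is printed for this region.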

Additional observations from a re-analysis of the deposited data

How the results depend on the processing

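Of 18 values recomputed under 95 alternatives, 66 stayed within the interval or within 1.5 times the count of the reported value. All-exon, IgG-subtracted and unique-window settings, and every setting of the downstream comparison, were chosen after seeing the data. With a score of at least 100, the genes with a site fell from 13 to 1 in ESCs and from 2 to 0 in EBs, the region's sites fell from 26 to 8 and from 12 to 6, and the overlapping shares became 75.0% of ESC sites and 100% of EB sites. The shares of all autosomal genes and sites at that score are not given here. With the 5′ start of each gene alone, 0 genes had an EB site, and without the margin the EB list held 5 sites. RAD21 over IgG at starts was 2.91 in ESCs and 2.46 in EBs within 250 bp, and 2.92 and 2.60 within 500 bp. Centred on the shared autosomal sites (a shift of 0.38 on the log2 scale), EB over ESC was 0.56 at member starts, 0.44 at listed sites near starts, 1.33 downstream of gamma and -0.86 (log2) as the median over the region's sites. Divided by the IgG ratio, that median was -0.94 from -0.48, the downstream ratio reversed to 0.91 from 1.74, and the downstream value was 1.18 times that of starts rather than 2.36 times. With IgG subtracted the ratio at member starts was 0.59. Among sites in both lists it was 0.89 near starts, and the downstream value was 1.84 times that; against all listed sites near starts it was 3.04 times. Motif counts rose from 1 to 18 starts and from 0 to 11 sites at the looser threshold. The cause of these moves was not tested. No paired analysis was possible because each group holds 1 library, and for the same reason no library could be left out. Depth limits single sites: at the beta sites EB counts were 1 to 8 reads.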
